A study of Caenorhabditis elegans with 55 samples.

Results

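Small RNAs antisense to pseudogenes were followed through Argonaute immunoprecipitates (IPs) and their inputs in 10 *C. elegans* strains. Of 1627 antisense pseudogene features in the tables, 437 had at least 2 RPM (reads scaled to a library total of 1000000) in both replicates of an IP or an input in at least 2 strains. These 437 are called members below. Members were thus chosen by their RPM in these same libraries: 346 members met it through inputs alone, 91 needed an IP, and 238 reached the level in all 10 strains. The members just inside it were WBGene00008306, WBGene00271802 and WBGene00045363 at 2.004, 2.02 and 2.05 RPM, and just outside were WBGene00008055, WBGene00013614 and WBGene00023271 at 1.89, 1.92 and 1.95 RPM. All small RNA features together number 70241.

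In *C. elegans*, RNA-dependent RNA polymerases copy target transcripts into short antisense small interfering RNAs, which Argonaute proteins bind. Argonautes of the WAGO group carry such RNAs against pseudogenes, transposons and other transcripts to be silenced, while CSR-1 is known for small RNAs antisense to protein-coding genes that the germline expresses. ALG-3 and ALG-4 act during spermatogenesis, and the isoforms CSR-1a and CSR-1b differ in an N-terminal stretch encoded by the first exon.

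Small RNA came from whole L4 larvae kept at 20 C, with 2 IP and 2 input libraries per strain. JMC101 is *csr-1(tor67[gfp::3xflag::csr-1])*, which tags CSR-1. JMC151 is *csr-1(tor160)*, in which exon 1 carries gfp::3xflag, a tag on CSR-1a. JMC164 joins a tag in exon 2, listed as tor67, with *csr-1(mg660[G120\*])*, a stop in CSR-1a, so that CSR-1b is the tagged isoform. JMC205 is *alg-3(tor141[gfp::3xflag::alg-3])*, JMC207 is *alg-4(tor143[gfp::3xflag::alg-4])*, JMC248 is *wago-10(tor162[3xflag::wago-10])* and JMC223 is *wago-4(tor117[gfp::3xflag::wago-4])*. JMC161 carries *unc-119(ed3)*, the transgene *mgTi11[rpl-28::csr-1a exon1::gfp]* and *csr-1(tm892)*. Its CSR-1a is driven by the promoter of *rpl-28*, a ribosomal protein gene, and not by its own. GR3039 is *csr-1(mg657[G91R])*, and GR3035, to which it is compared, carries the reporters *mgIs75[rpn-2::gfp]* and *mgTi14[pbs-5::mcherry]*. For these 2 strains the IP label is CSR-1a. Polyadenylated mRNA of JMC164 and wild-type N2, 3 libraries per strain and temperature, was read at 20 C and 25 C.

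Several labels limit what the IPs can show. No IP from an untagged or mock control was analysed, so enrichment is always over the input of the same strain. The IPs of GR3039, GR3035 and JMC248 are labelled as made on GFP beads although their genotypes put no GFP on the Argonaute, and the protocol also names an antibody to CSR-1a. The GR3039 label lacks the reporters of GR3035. JMC161 is titled as CSR-1 and tabled as CSR-1a, and the mRNA titles of JMC164 name another allele, *csr-1a(tor159)*. Estimated depth ran between 325376 reads (WAGO-4 input replicate 2) and 30284492 reads (ALG-3 input replicate 2), so that 1 read was worth 0.033 to 3.07 RPM. In whole worms, fewer cells that make a small RNA and less of it per cell cannot be told apart. Nothing in the labels says that replicates came from separate cultures, so p-values measure the spread between these libraries, which may be technical.

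Only 4 members have a gene symbol in the name table. *plg-1* (WBGene00004041, chromosome III) encodes a mucin-like component of the copulatory plug and is disrupted by a retrotransposon in N2. F39E9.10 (WBGene00023036, chromosome II), F45H11.8 (WBGene00189958, chromosome I) and F45B8.5 (WBGene00194794, chromosome X) carry sequence names only. RefSeq (WBcel235) lists F39E9.10 as a long noncoding RNA and the other 3 as protein coding, while the deposited tables list all 4 as pseudogenes. The other 433 members are named by WormBase identifier, with no role given here.

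Reads on the members were mostly antisense. The median antisense share over members, out of sense plus antisense reads, was 97.7% in IPs and 97.9% in inputs. In inputs it exceeded 90% for 326 of the 437 members and was under 50% for 21. The 26 members with no sense feature in the tables were counted as wholly antisense in these values. The median RPM of a member over all libraries had a median of 4.80 and ran between 0.229 and 2945. The 10 members with the most reads held 28.0% to 80.3% of all member reads in IPs and 36.1% to 44.9% in inputs. A pair of members had identical values in every library and may share their reads.

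The share of a library that was antisense to pseudogenes was above input in the IP of 2 strains, both labelled CSR-1a. It averaged 9.59% ± 0.391 in the CSR-1a IP of JMC151 and 4.01% ± 0.769 in its input (SD, n = 2 each). GR3035 gave 7.44% ± 0.551 in the IP and 5.56% ± 0.164 in the input (SD, n = 2 each). In these 2 strains both IP libraries lay above both inputs. Leaving out WBGene00077437, the member with the highest median RPM, reduced the gap of IP minus input from 1.88 to 1.02 percentage points in GR3035. WBGene00045366 and F39E9.10, which were kept, had means of 12390 and 5161 RPM in that IP against 4018 and 2619 RPM in the input. The 10 members with the most reads held 68.7% and 69.6% of member reads in the GR3035 IPs, against 39.9% and 43.7% in its inputs. In JMC151 the 10 held 78.3% and 80.3% in the IPs, against 43.2% and 44.3% in the inputs. WBGene00045366 alone averaged 26946 RPM in the JMC151 IP and 3308 RPM in its input. The gaps in both strains thus rested on few members.

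The other 8 IPs held a smaller mean share than their inputs. It was lowest with ALG-3, at 0.758% ± 0.0107 in the IP and 4.17% ± 0.0593 in the input, followed by ALG-4 at 0.801% ± 0.0055 in the IP and 4.13% ± 0.212 in the input (SD, n = 2 each). CSR-1b in JMC164 gave 1.05% ± 0.102 in the IP and 4.44% ± 0.273 in the input, and CSR-1 in JMC101 gave 1.15% ± 0.0785 in the IP and 4.35% ± 0.0173 in the input (SD, n = 2 each). In each of these 4 strains the IPs lay well below the inputs and did not overlap them.

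Smaller gaps were seen in the remaining strains. WAGO-4 gave 2.98% ± 0.118 in the IP and 3.98% ± 0.0413 in the input, and the JMC161 transgene gave 3.23% ± 0.216 in the IP and 4.23% ± 0.174 in the input (SD, n = 2 each). WAGO-10 gave 3.56% ± 0.254 in the IP and 4.33% ± 0.538 in the input, and GR3039 gave 3.69% ± 0.204 in the IP and 4.24% ± 0.350 in the input (SD, n = 2 each). Over all strains the inputs stayed between 3.47% and 5.68%. Groups did not overlap in any of the 10 strains, but exact permutation of 4 libraries cannot reach 0.05, so no p is given for shares.

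**Figure D1:**
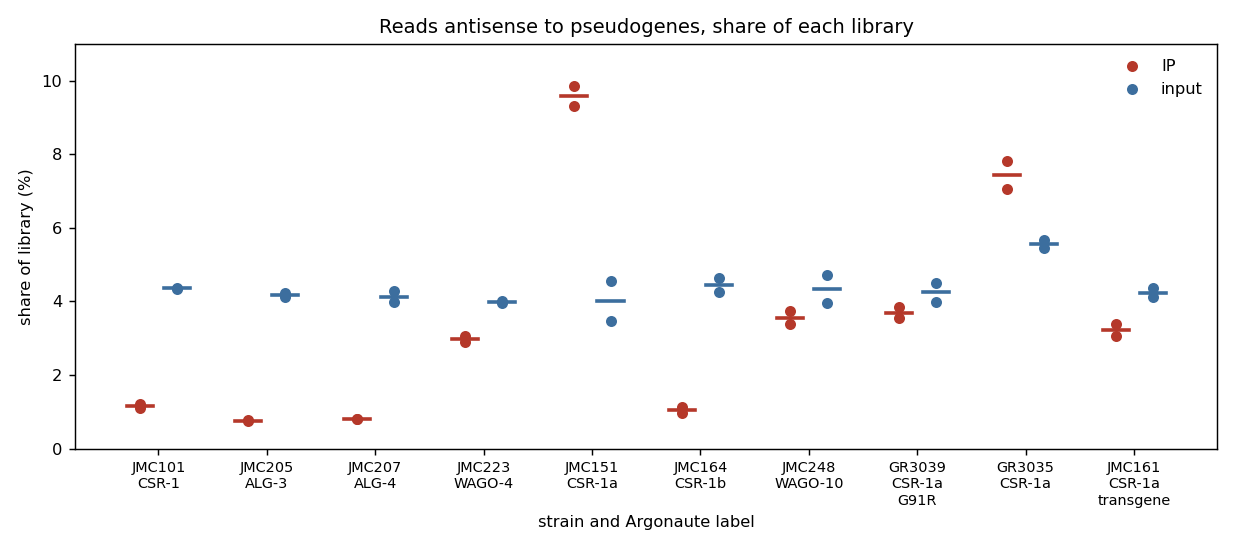
Share of each library, in percent, that is antisense to pseudogenes, for IP (red) and input (blue) of the 10 strains; points are the 2 libraries of a group and bars their mean. Inputs lie between 3.47% and 5.68%, while IPs reach 9.86% in JMC151 and fall to 0.75% in JMC205.

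Member by member, each IP but that of WAGO-4 held fewer members above input than below, and TMM scaling, described with its values after these counts, turned this round for WAGO-10 and WAGO-4. Enrichment was tested with limma on log2(RPM + 1), a scale that understates the change of rare RNAs. A member counted as enriched at a Benjamini-Hochberg adjusted p under 0.05 over all features with a log2 fold change of 1 or more, and as lower at -1 or less. Each strain's counts use only members that met the level in at least 2 other strains. A member with few input reads passes the minimum of 10 estimated reads in 2 libraries mainly through the IP, so the counts describe the members that passed and not all 437.

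Among CSR-1 IPs, JMC101 had 59 enriched and 210 lower of 393 members tested, where 36.1% and 32.2% of all features were called. JMC151 had 63 enriched and 120 lower of 231, against 32.5% and 20.2% of all features. JMC164 had 58 enriched and 214 lower of 403, against 27.9% and 27.3%. The median log2 fold change of the members was -1.32, -1.5 and -1.26 in JMC101, JMC151 and JMC164, beside 0.15, 0.56 and -0.23 over all features. Thus the shares of members called lower stood above the background in all 3, and those called enriched stood below it. This was not particular to pseudogenes, as antisense transposon features were mostly lower too. Antisense transposon features were lower in 124 of 182, 105 of 138 and 127 of 195 in the same order, with 10, 7 and 9 enriched. Antisense long noncoding RNA (lincRNA) features were lower in 30 of 39, 7 of 32 and 30 of 40, with 3, 16 and 3 enriched. They thus went the other way in JMC151, with a median of 1.28. Antisense protein-coding features had medians of 1.42, 1.03 and 1.09 in the same order.

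With ALG-3, 81 members were enriched and 249 lower of 391, against 22% and 28.8% of all features. ALG-4 had 87 enriched and 242 lower of 381, against 26.1% and 32.0%. The median log2 fold changes were -1.57 for ALG-3 and -1.65 for ALG-4, beside -0.32 and -0.33 over all features.

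With values scaled to library totals, the WAGO IPs had smaller shares of members called lower than the IPs above. These were 20.3% with WAGO-4 and 18.4% with WAGO-10. As in the IPs above, lower calls stood above the background and enriched calls below it. With WAGO-4, 67 members were enriched and 50 lower of 246, while 54.8% and 11.2% of all features were called, and the median was -0.04 beside 2.26 over all features. With WAGO-10, 28 were enriched and 59 lower of 320, against 9.73% and 14.8%, with a median of -0.33 beside -0.30.

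In the IPs otherwise labelled CSR-1a, GR3039 had 43 enriched and 65 lower of 349, against 12.1% and 9.72% of all features. GR3035 had 101 enriched and 158 lower of 417, against 20.9% and 13.3%. JMC161 had 101 enriched and 173 lower of 397, against 34.8% and 26.3%. The medians were -0.34, -0.65 and -0.35 in GR3039, GR3035 and JMC161, beside 0.03, 0.08 and 0.30 over all features.

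Single libraries and the scaling moved some of these counts. Without IP replicate 1 or 2, enriched members numbered 16 or 14 in JMC151, 35 or 28 in JMC101, 56 or 55 with ALG-4 and 35 or 37 with WAGO-4, and lower members in JMC151 numbered 61 or 46. Lower members also numbered 68 or 78 in JMC151 without input replicate 1 or 2, 29 with WAGO-10 without input replicate 2, and 31 in GR3039 without input replicate 1. Scaling by TMM factors, which assumes that most features do not change, gave 22 enriched and 124 lower with WAGO-4, 40 enriched and 22 lower with WAGO-10, and 57 enriched and 196 lower in JMC161.

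**Figure D2:**
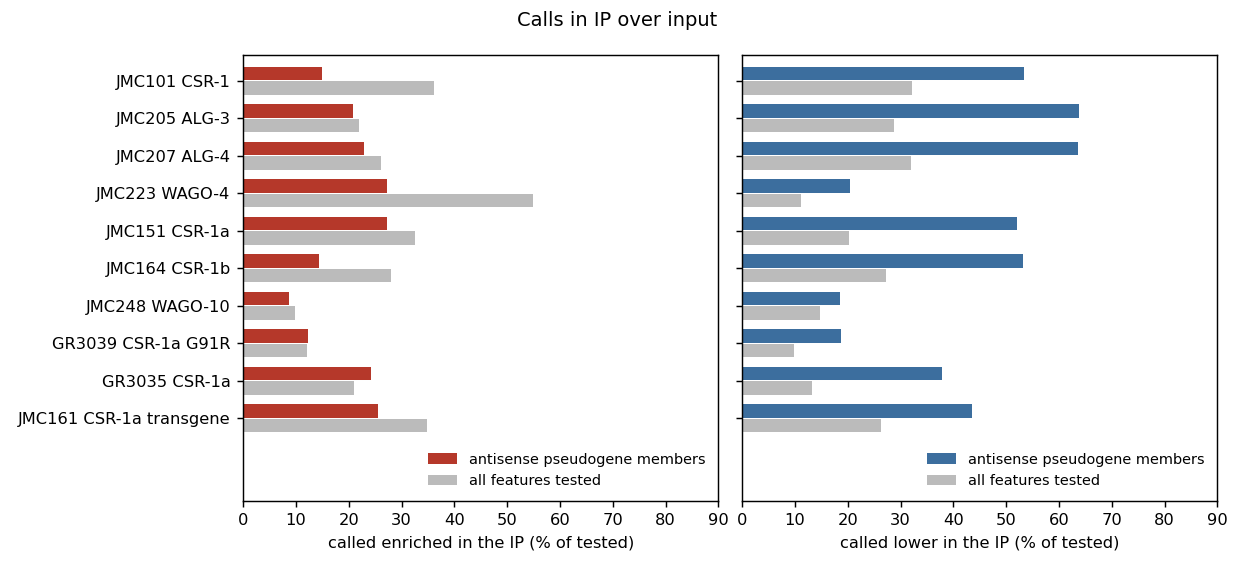
Percentage of tested features called enriched (left) or lower (right) in each IP over its input, for the antisense pseudogene members (coloured bars) and for all features (grey bars). With values scaled to library totals, lower calls take a larger share of members than of all features in each of the 10 IPs, with backgrounds from 9.72% of all features in GR3039 to 32.2% in JMC101.

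Over the 10 IPs, 204 members were enriched in at least 1, 287 were lower in at least 1, and 84 were enriched in 1 and lower in another. Enrichment in 5 or more IPs with a lower call in none was seen for 41 members, and a lower call in 5 or more with enrichment in none for 151. Another 25 were neither in every IP where they were tested, and 5 were tested in none. Matching counts over all features were not computed. In a single IP up to 54.8% of all features were enriched and up to 32.2% lower, so these counts describe the members only.

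Of the 5 members with the most reads, 3 were enriched with CSR-1a in JMC151 and lower with CSR-1b in JMC164. WBGene00077437, the member with the highest median, had 8839 and 14977 RPM in the CSR-1a IP of JMC151, against 1567 and 2704 RPM in its inputs. In the CSR-1b strain JMC164 it had 187 and 145 RPM in the IP, against 3235 and 3667 RPM in the inputs. All IP libraries thus lay above the inputs in JMC151 and below them in JMC164. The log2 fold changes were 2.48 (SE 0.59, limma adjusted p 0.000292) and -4.38 (SE 0.28, limma adjusted p 2.67e-05), and they differed by 6.86 (SE 0.82, limma interaction adjusted p 0.000498).

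WBGene00045366 behaved likewise. It had 30335 and 23558 RPM in the JMC151 IP against 3367 and 3249 RPM in the inputs, and 226 and 147 RPM in the JMC164 IP against 2462 and 2075 RPM in the inputs. IPs and inputs did not overlap in either strain, with the JMC151 IP far above its input. The difference of the log2 fold changes was 6.64 (SE 0.82, limma interaction adjusted p 0.000593).

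F39E9.10 had 7277 and 7760 RPM in the JMC151 IP against 1325 and 1039 RPM in the inputs, and 118 and 89.1 RPM in the JMC164 IP against 1338 and 1198 RPM in the inputs. Its interaction was 6.29 (SE 0.66, limma adjusted p 0.000242). In GR3035 the IP also lay above the input for all 3: WBGene00077437 reached 11676 and 13464 RPM in the IP against 3601 and 4421 RPM in the inputs, or 1.65 on the log2 scale (SE 0.43, limma adjusted p 0.0158). F39E9.10 stayed just under the fold minimum there, at 0.98 (SE 0.34, limma adjusted p 0.048).

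The highest interaction was that of WBGene00013644. It had 3561 and 4267 RPM in the JMC151 IP against 127 and 118 RPM in the inputs, and 12.95 and 7.21 RPM in the JMC164 IP against 105 and 68.5 RPM in the inputs. The inputs of the strains were alike in size and the IPs were far apart. The interaction was 7.98 (SE 0.56, limma adjusted p 2.77e-05). This member was also enriched in GR3035, GR3039, JMC161 and the WAGO-10 IP, at 3.74, 2.10, 1.39 and 1.32, and lower with ALG-3, ALG-4 and WAGO-4, at -2.40, -2.62 and -1.70 on the log2 scale.

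WBGene00021018 and WBGene00077772 followed closely, with interactions of 7.91 (SE 0.59) and 7.64 (SE 0.48), at limma adjusted p of 3.02e-05 and 2.59e-05. F45B8.5 had 126 and 96.0 RPM in the JMC151 IP against 5.38 and 2.67 RPM in the inputs, and 420 and 281 RPM in the GR3035 IP against 34.6 and 19.6 RPM in the inputs. In JMC164 it had 2.78 and 1.56 RPM in the IP against 17.3 and 13.5 RPM in the inputs. Its IPs lay above the inputs in JMC151 and GR3035 and below them in JMC164.

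**Figure D3:**
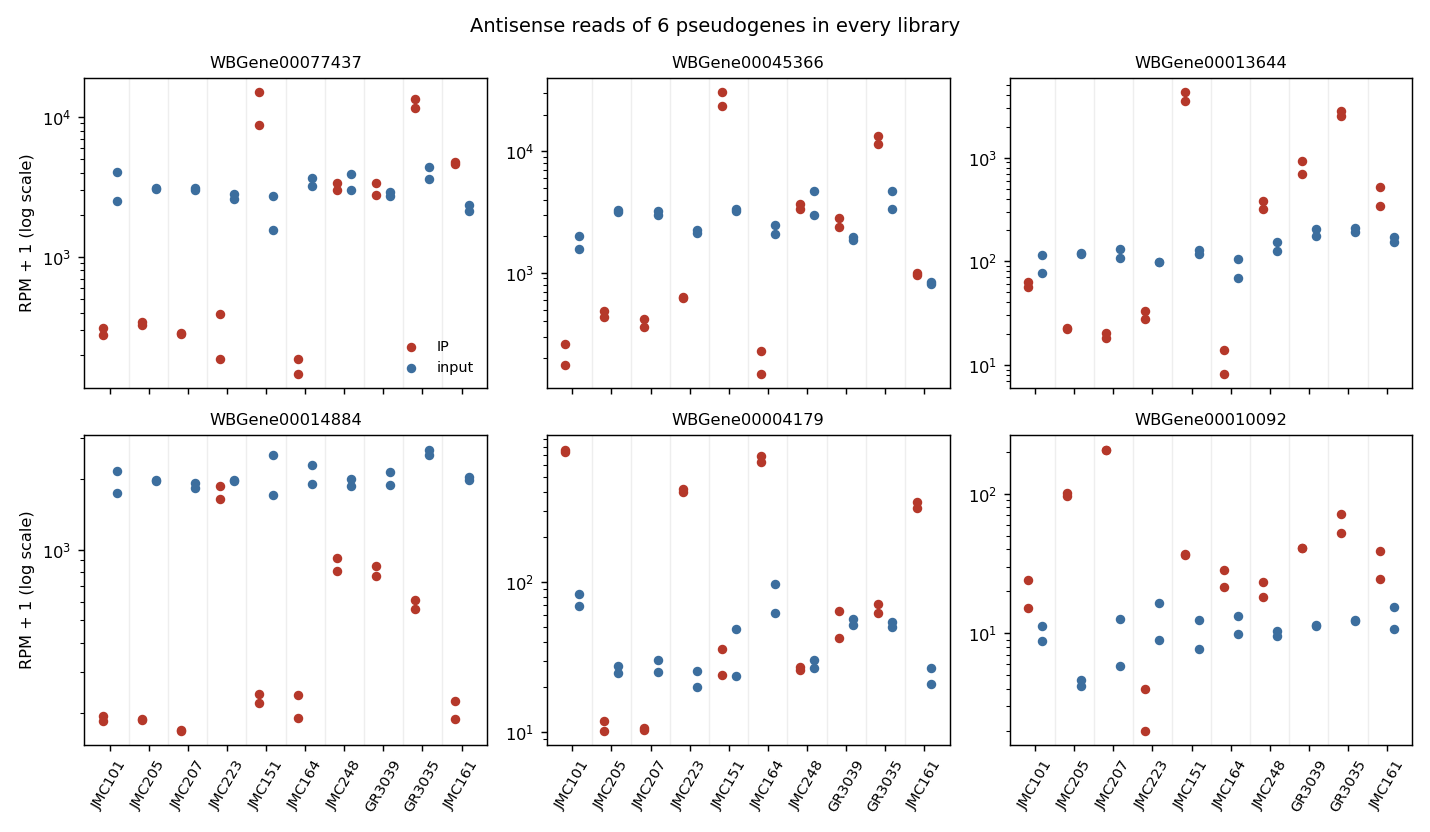
RPM + 1 on a log scale for 6 members in all 40 libraries, IP in red and input in blue, 2 points per group. WBGene00077437, WBGene00045366 and WBGene00013644 have IPs above inputs in JMC151 and GR3035 and below them in JMC164; WBGene00014884 lies far below input except with WAGO-4, where it is close to input; WBGene00004179 lies far above input in JMC101, JMC164, JMC223 and JMC161; WBGene00010092 lies above input except with WAGO-4.

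Of the 406 members tested for a difference between JMC151 and JMC164, 54 had higher enrichment in JMC151 and 22 lower, beside 9.1% and 12.8% of all features. Among the 230 that also passed the read minimum in both IPs the counts were 48 and 9. A share of all features under that filter was not computed. The lowest was WBGene00014576, with 1.94 and 1.92 RPM in the JMC151 IP against 6.14 and 1.34 RPM in the inputs, and 146 and 140 RPM in the JMC164 IP against 13.4 and 14.9 RPM in the inputs. Only the JMC164 IP stood apart from its inputs, and the interaction was -3.73 (SE 0.69, limma adjusted p 0.00503). Without JMC164 IP replicate 1 or 2 there were 35 or 24 higher and 12 or 5 lower, and without its input replicate 1 or 2 there were 31 or 26 higher and 12 or 9 lower. TMM factors gave 44 higher and 32 lower.

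Calls in both strains sorted most of the 230 members into 3 sets. Enriched in JMC151 and lower in JMC164 were 24, enriched in both 26, and lower in both 111. Sets of this kind were not counted over all features. The 24 had a median input level of 245 RPM and held 25.0% to 41.1% of member reads in inputs, and up to 93.2% in the JMC151 IP. As the 24 were chosen by their call in that IP, the last value is no separate result. The 26 enriched in both held 0.254% to 0.657% of member reads in inputs, where a low level is set in part by the read minimum, which members with few input reads pass only through an IP. The 111 lower in both had a median of 59.4 RPM and held 45.9% to 61.6%.

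**Figure D4:**
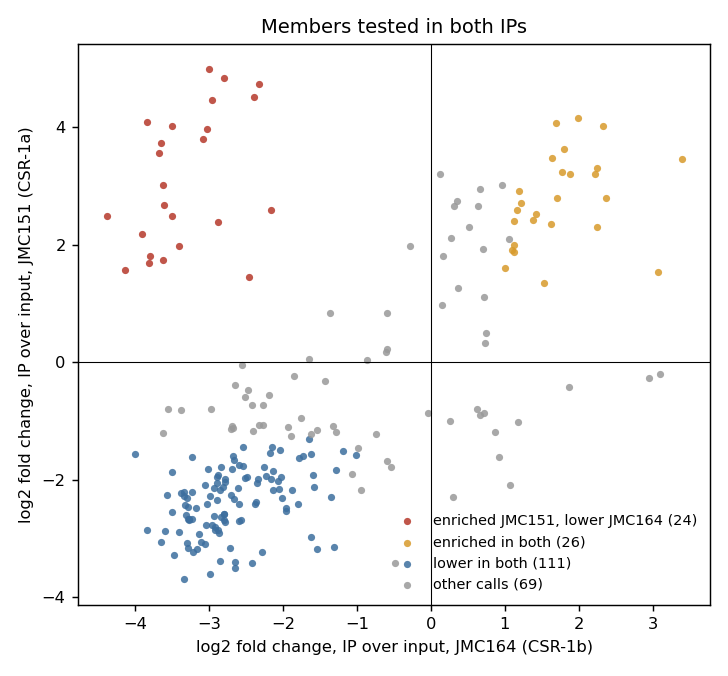
Log2 fold change of IP over input in JMC151 (CSR-1a, vertical) and JMC164 (CSR-1b, horizontal) for the 230 members tested in both; each point is 1 member. The 24 members enriched in JMC151 and lower in JMC164 fill the upper left, apart from the 26 enriched in both and the 111 lower in both.

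The other IPs, whose calls did not form these sets, split them further. Their libraries did count towards the 2 RPM that made a member. The 26 had a median input level of 2.42 RPM, and 12 of them reached the level in all strains. Their calls in the other IPs are thus partly set by the choice of members. Of the 24, GR3035 enriched 16, JMC161 11, GR3039 10 and WAGO-10 5. None was enriched with ALG-3, ALG-4, WAGO-4 or in JMC101, where 23 of 24, 24 of 24, 14 of 20 and 20 of 23 were lower. Of the 26, by contrast, GR3035 enriched 25, JMC161 26, ALG-4 23, JMC101 22 and ALG-3 21. Of the 111, ALG-3 had 111 lower, ALG-4 and JMC101 110 each, JMC161 106 of 110 and GR3035 102, while WAGO-4 had 23 lower and 6 enriched of 103.

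Across members, the log2 fold changes of JMC151 had a Pearson r of 0.94 with those of GR3035 (231 members), 0.47 with JMC164 (230 members) and -0.01 with WAGO-4 (180 members). ALG-3 and ALG-4 had an r of 0.99 (389 members), and JMC101 and JMC164 one of 0.96 (385 members). Members share libraries and input depth within a strain, so these values are a description.

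Several abundant members were below input almost everywhere. WBGene00014884 had 220 and 240 RPM in the JMC151 IP against 2532 and 1704 RPM in the inputs, and 186 and 188 RPM in the ALG-3 IP against 1959 and 1971 RPM in the inputs. With WAGO-4 it had 1862 and 1649 RPM in the IP against 1958 and 1979 RPM in the inputs. It was lower in 9 IPs, at log2 fold changes between -3.47 and -1.16, and lay near input with WAGO-4 at -0.17 (SE 0.10, limma adjusted p 0.197). WBGene00000801 was lower in the same 9 IPs and measured -0.30 (SE 0.09) with WAGO-4, short of the fold minimum.

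*plg-1* antisense reads had 22.8 and 53.3 RPM in the JMC101 IP against 292 and 320 RPM in the inputs, and 39.9 and 45.9 RPM in the JMC161 IP against 399 and 559 RPM in the inputs. The log2 fold changes were -3.09 (SE 0.38, limma adjusted p 0.000535) in JMC101 and -3.43 (SE 0.19, limma adjusted p 2.48e-06) in JMC161. The gene was lower in 7 IPs and neither in the WAGO-10, WAGO-4 and GR3039 IPs, at -0.35, -0.63 and -0.48. No IP enriched it.

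Another group was enriched with CSR-1b and WAGO-4, and mostly also in JMC101 and JMC161. WBGene00004179 had 636 and 695 RPM in the JMC164 IP against 61.1 and 96.2 RPM in the inputs, and 398 and 420 RPM in the WAGO-4 IP against 19.05 and 24.6 RPM in the inputs. In JMC151 it had 34.9 and 23.0 RPM in the IP against 47.6 and 22.7 RPM in the inputs. IP and input overlapped in JMC151 and were far apart in the other 2. The log2 fold changes were 3.10 (JMC164), 4.18 (WAGO-4), 3.31 (JMC101) and 3.79 (JMC161), and -0.21 in JMC151 (SE 0.58, limma adjusted p 0.793). The JMC151 value was lower than that of JMC164 by an interaction of -3.31 (SE 0.61, limma adjusted p 0.00501).

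WBGene00008933 was enriched in the same 4 IPs, at 2.61 in JMC164, 4.98 with WAGO-4, 3.61 in JMC101 and 3.10 in JMC161, and 0.12 in GR3039 and -0.03 in GR3035. F45H11.8, a rare member, had 5.89 and 6.43 RPM in the JMC164 IP against 0.70 and 1.06 RPM in the inputs, or 1.93 on the log2 scale (SE 0.34, limma adjusted p 0.00173). It was also enriched in JMC101, JMC161 and with WAGO-4. In all, 21 members were enriched in both JMC164 and WAGO-4. Of these JMC101 enriched 19 and JMC161 16, while GR3035 enriched 4 of 21, GR3039 3 of 18 and WAGO-10 2 of 15. Shared calls over all features were not computed beside these.

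Some members went opposite ways in these IPs. Enriched with WAGO-4 and lower in JMC164 were 13, which were lower in JMC101 and with ALG-3 and ALG-4 in 13 of 13 each. Many more, 103 of the 245 tested in both, were neither with WAGO-4 and lower in JMC164. No such counts were computed over all features. WBGene00010295 had 671 and 585 RPM in the WAGO-4 IP against 125 and 123 RPM in the inputs, and 80.4 and 80.4 RPM in the JMC164 IP against 539 and 504 RPM in the inputs. It lay above input with WAGO-4 and below it in JMC164, and the interaction of 5.01 (SE 0.24, limma adjusted p 0.000122) was the highest called for these IPs.

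Over the 398 members tested for WAGO-4 against CSR-1b, 146 had higher enrichment with WAGO-4 and 13 lower, beside 15.5% and 3.39% of all features. Among the 242 that also passed the read minimum in both IPs the counts were 146 and 4. A share of all features under that filter was not computed, and a higher value need not mean enrichment over input with WAGO-4. The lower count was 0 without JMC164 IP replicate 2, 3 without its input replicate 2 and 6 without its IP or input replicate 1. Leaving out a WAGO-4 library gave 6 and 5 lower (IP replicates 1 and 2) and 30 and 29 lower (input replicates 1 and 2), and one fit of all libraries gave 40. The lowest, WBGene00010092, had 1.00 and 2.98 RPM in the WAGO-4 IP against 7.94 and 15.4 RPM in the inputs, and 20.3 and 27.5 RPM in the JMC164 IP against 12.3 and 8.87 RPM in the inputs. Its interaction of -3.20 (SE 0.66, limma adjusted p 0.0103) rested on few WAGO-4 reads and did not pass without JMC164 IP or input replicate 2 (limma adjusted p 0.0613 and 0.0578).

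ALG-3 and ALG-4 enriched largely the same members: 79 were shared, of the 81 of ALG-3 and of the 87 of ALG-4. The overlap over all features was not computed, so this describes the members only. WBGene00010092 had 100 and 96.1 RPM in the ALG-3 IP against 3.19 and 3.60 RPM in the inputs, and 207 and 204 RPM in the ALG-4 IP against 11.6 and 4.85 RPM in the inputs. The log2 fold changes were 4.50 (SE 0.10) for ALG-3 and 4.59 (SE 0.35) for ALG-4. The 79 were also enriched in GR3035 in 67 of 79 and in JMC101 in 26 of 76. In JMC151 only 34 of the 79 passed the read minimum, and 29 of these were enriched. The 79 had a median input level of 1.39 RPM, while 1 read was worth 0.640 to 0.768 RPM in JMC151 libraries. Members with so few input reads pass that minimum mainly through the IP, so the JMC151 count says little about shared enrichment. The median of 1.39 RPM also lay under the 2 RPM that made a member. IPs, those of ALG-3, ALG-4 and GR3035 among them, can thus have helped choose such members, which in part sets the other shared counts.

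Others had fewer calls outside these 2 IPs. WBGene00235369 had 28.6 and 26.4 RPM in the ALG-3 IP against 1.49 and 0.668 RPM in the inputs, and 84.8 and 90.3 RPM in the ALG-4 IP against 3.08 and 0.582 RPM in the inputs. It was called in no direction in JMC101 and JMC164, and enriched in GR3035 and JMC161. WBGene00044042 was enriched with ALG-3 and ALG-4, at 3.50 and 4.29, in no other IP where it was tested, and lower in JMC101 at -1.35.

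For ALG-3 against CSR-1a in JMC151, 13 of 387 members had higher enrichment with ALG-3 and 41 lower, beside 10.1% and 11.5% of all features. Among the 230 that also passed the read minimum in both IPs the counts were 5 and 37. No share of all features was computed under that filter. WBGene00044042 was highest at 3.18 (SE 0.45, limma adjusted p 0.00184), with 23.9 and 27.1 RPM in the ALG-3 IP against 1.70 and 1.02 RPM in the inputs, and 3.23 and 4.48 RPM in the JMC151 IP against 3.07 and 2.67 RPM in the inputs. WBGene00013644 was lowest at -7.39 (SE 0.34, limma adjusted p 9.71e-05), with 21.0 and 21.4 RPM in the ALG-3 IP against 115 and 118 RPM in the inputs. TMM factors turned the balance round, with 71 higher and 31 lower. Without JMC151 input replicate 1 there were 18 higher and 69 lower. Without ALG-3 IP replicate 1 or 2 there were 4 or 3 higher and 28 or 29 lower, and without its input replicate 1 or 2 there were 7 or 4 higher and 28 or 30 lower.

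Many of the members enriched in several IPs had few input reads and passed the read minimum through the IP, so their low input level follows from the filter and is no finding. Asking for 10 reads in both inputs left 24 enriched in JMC101, 22 in JMC151, 23 in JMC164 and 28 with ALG-3. WBGene00012924 and WBGene00008192 were enriched in 9 of the 9 IPs where they were tested, all but WAGO-4. WBGene00008192 had 22.6 and 17.9 RPM in the JMC151 IP against 0.768 and 2.004 RPM in the inputs, and 9.22 and 13.8 RPM in the JMC164 IP against 1.00 and 2.48 RPM in the inputs. IPs lay above inputs in both strains. WBGene00007715 was enriched in 8, and in GR3035 it had 45.2 and 26.9 RPM in the IP and no read in either input.

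Some of these had mostly sense reads in inputs and mostly antisense reads in IPs. WBGene00009846 was enriched in 9 IPs, at up to 4.50 in GR3035, with 199 and 184 RPM in the IP against 7.44 and 7.60 RPM in the inputs. Only 10.5% of its input reads were antisense, against 79.6% over the IPs. WBGene00004677 was enriched in 8 IPs and lower with ALG-3, at -1.12. Of its reads 23.2% were antisense in inputs and 88.7% over the IPs. Antisense reads of such features can overlap another gene on that strand, which was not tested.

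Between GR3039 and GR3035, enrichment was higher in GR3039 for 3 of 411 members and lower for 7 by limma's adjusted test, beside 0.286% and 0.962% of all features, and 171 members had an unadjusted p under 0.05. The low count does not show that the strains were alike. WBGene00007721 was lowest at -4.18 (SE 0.44, limma adjusted p 0.00812), with 0.106 and 0.343 RPM in the GR3039 IP against 3.46 and 3.24 RPM in the inputs, and 13.5 and 18.04 RPM in the GR3035 IP against 3.19 and 1.56 RPM in the inputs. In the GR3039 IPs 1 read was worth 0.317 and 0.514 RPM, so both of these IP values lay under 1 read. WBGene00010295 was highest at 1.95 (SE 0.28, limma adjusted p 0.0152), with 76.7 and 80.5 RPM in the GR3039 IP against 95.9 and 85.03 RPM in the inputs, and 257 and 364 RPM in the GR3035 IP against 1305 and 1412 RPM in the inputs. IPs lay slightly below inputs in GR3039 and far below them in GR3035. Under the alternatives the call of WBGene00010295 was lost in 7 (limma adjusted p 0.0503 to 0.172) and that of WBGene00007721 in 3 (limma adjusted p 0.0975 to 0.159). The total of 10 depended on single libraries: it was 63 without GR3039 IP replicate 1, 1 without GR3039 IP replicate 2, 0 without GR3039 input replicate 1 or 2 and 1 or 2 without any one GR3035 library. TMM factors gave 82 higher and 10 lower, and the replicate block 32 higher and 28 lower.

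Inputs of some members differed strongly between strains. The tables were scaled separately, so these levels are given with no test, and the members were picked for their spread. For 20 of the 432 members listed in every table, the highest and lowest strain means of the input were at least 8-fold apart on RPM + 1, and for 91 at least 4-fold. WBGene00010295 had 1512 and 1653 RPM in JMC161 inputs, 1305 and 1412 RPM in GR3035 inputs and 10.6 RPM in both ALG-3 inputs. Its input replicates lay close together in these strains, and its inputs spanned a larger range than those of any other member listed in every table.

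WBGene00045218 had 84.7 and 113 RPM in GR3035 inputs, while the other strains had means between 0.298 and 4.10 RPM. WBGene00008328 had 366 and 390 RPM in WAGO-4 inputs, against means of 17.6 to 66.3 RPM elsewhere. JMC161 had the highest inputs for 7 of the 20, among them WBGene00018658, WBGene00014987 and WBGene00018664 at means of 532, 547 and 1205 RPM, where the other strains reached at most 102, 133 and 268 RPM. In the JMC161 IP such levels were not seen for WBGene00018664, which had 85.5 and 89.9 RPM in its IP against 1187 and 1223 RPM in its inputs.

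**Figure D5:**
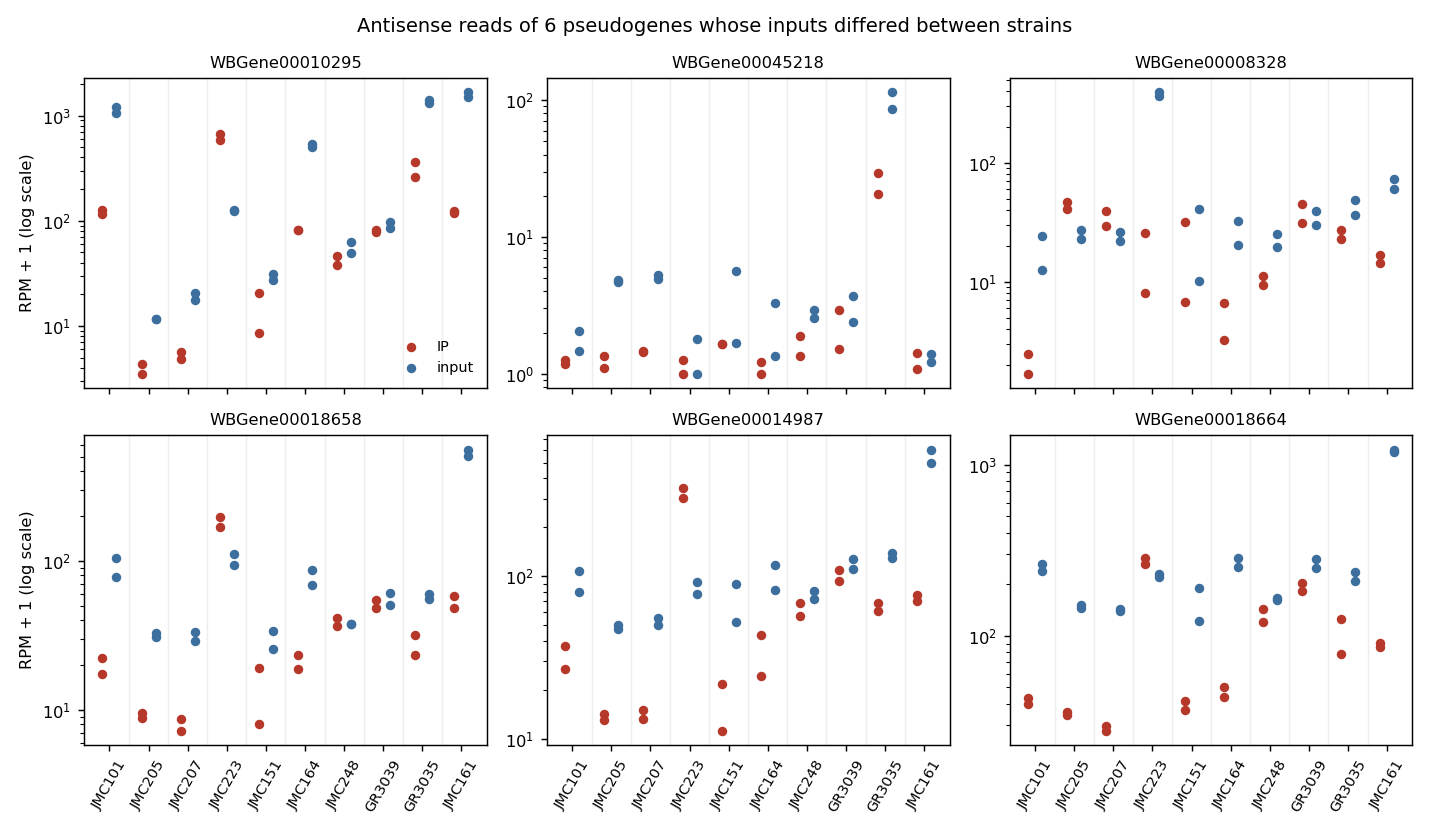
RPM + 1 on a log scale for 6 members whose inputs differed between strains, IP in red and input in blue, 2 points per group. Inputs of WBGene00010295 span 10.6 to 1653 RPM, those of WBGene00045218 stand out in GR3035, those of WBGene00008328 in JMC223, and those of the lower row in JMC161.

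The members enriched with CSR-1a were also present in the inputs of JMC164. The 63 members enriched in the JMC151 IP made up 31.1% and 33.4% of member reads in the JMC164 inputs, whose genotype carries the stop in CSR-1a. Over the inputs of all strains the share lay between 25.5% and 41.6%, so the JMC164 inputs were inside the range of the others. In IPs it was 92.1% and 94.2% in JMC151, 83.5% and 82.1% in GR3035, 24.6% and 27.3% in JMC164 and 13.5% and 11.6% with WAGO-4. The 63 were chosen by their call in the JMC151 IP, so the JMC151 values are no separate result.

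mRNA of the members was not analysed here, as none of the 437 has a row in the mRNA tables used. Genes that make or carry such small RNAs were followed instead, in JMC164 against N2. Reads on the GFP tag numbered 23.1, 44.0 and 31.3 CPM in JMC164 and 0.107, 0 and 0 CPM in N2 at 20 C, where CPM are counts scaled to 1000000. At 25 C they numbered 37.2, 22.3 and 19.6 CPM in JMC164 and were at 0 in N2, so the tag followed the labels. Of 33 tested, 0 changed at 20 C (edgeR quasi-likelihood test with Benjamini-Hochberg adjustment, beside 1.97% of all genes higher and 5.17% lower), with 1 at an unadjusted p under 0.05. DESeq2 also called 0, with 3 at an unadjusted p under 0.05. At 25 C 0 were higher and 4 lower, beside 17.4% and 11.2% of all genes.

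The 4 were *rde-10* and *rde-11*, whose products act together in amplifying RNAi, *nyn-2*, and *ppw-1*, which encodes an Argonaute. *rde-11* had 15.9, 15.2 and 14.96 CPM in JMC164 against 30.4, 30.4 and 31.4 CPM in N2, a log2 fold change of -0.96 (edgeR adjusted p 0.000487), and the groups did not overlap. *ppw-1* had 75.4, 55.5 and 59.1 CPM in JMC164 against 138, 96.5 and 136 CPM in N2, at -0.92 (edgeR adjusted p 0.0483). *rde-10* and *nyn-2* each measured -0.72 (edgeR adjusted p 0.0395 and 0.00544). The median of the list was 0.12 at 20 C and -0.53 at 25 C, beside 0.05 at both temperatures over all genes. Without JMC164 20 C replicate 3 the counts were 12 at 20 C and 17 at 25 C. At 25 C they were 2 without JMC164 replicate 2 or 3 or N2 replicate 1 or 3 of that temperature, and 8 with DESeq2.

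Germline markers were read beside this list. The summed level of 8 oocyte markers lay between 1147 and 2165 CPM in JMC164 and between 2068 and 4204 CPM in N2 at 25 C, and between 52.5 and 462 CPM in JMC164 and between 111 and 381 CPM in N2 at 20 C. None of the 8 passed the test at either temperature, with medians of -1.15 at 25 C and 0.79 at 20 C. Sperm markers summed to 182 to 224 CPM in JMC164 and 309 to 385 CPM in N2 at 25 C, where 2 of 9 tested were lower, and 1 of the 10 was at 0 in every library. At 20 C, 1 of the 9 was higher. The part of these markers in the list's values was not tested.

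Of the markers of other tissues, 2 of 5 intestine and 2 of 5 neuron genes were higher and 1 of 4 hypodermis genes was lower at 25 C. At 20 C, 1 hypodermis gene was higher and 1 neuron gene lower. None of 4 body wall muscle genes passed at either temperature. None of these markers of other tissues was at 0 in all libraries.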

How the data were processed

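Small RNA tables of 10 strains held 40 libraries, and 2 mRNA tables held 12. Of the 55 samples in the labels, 3 inputs of GR3043 were not analysed here. The deposited small RNA values are RPM with an offset of 0.01, read from the values: the columns total 1000000 with the offset subtracted. The deposited mRNA values are whole-number counts per gene. The submitters' processing notes name cutadapt, STAR, FastQC and DESeq2, while for their roles, their versions and the genome build the entry is: not given in the sources used here. RNA was treated with a 5' polyphosphatase before small RNA library preparation, per the labels' protocols. Depth was estimated from the RPM of 1 read. Low values were whole multiples of it (within 0.02 reads) in 74.5% to 87.2% of cases, and 86.2% to 95.7% for the antisense pseudogene class, so a count test was not run. Reads with no feature, 2.60% to 10.8% of a library, stayed out of the tests.

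Since the tables hold RPM, limma 3.58.1 with a mean-variance trend was fitted on log2(RPM + 1), each strain alone, over features with at least 10 estimated reads in at least 2 libraries. Benjamini-Hochberg adjustment ran over all features. Interactions used the 8 libraries of a pair. mRNA counts were tested with edgeR 4.0.16 (TMM factors, filterByExpr, 4 groups of 3 in one fit) and DESeq2 1.42.0, in R 4.3.3, and the scripts were tested on simulated data. Python 3.11.15 and pandas 2.3.3 were used for tables and matplotlib 3.10.9 for figures. Members and lists were chosen with earlier results of these data known. Members are named by rule: the 5 with the most reads, the 2 highest and 1 lowest called per IP, the 4 with the widest range, and the extremes of each interaction. Not every member that this rule picked is described above. WBGene00015989, picked for the widest range, and WBGene00219477, the lowest in JMC101, are among those left out. Members with a symbol and those named for their input spread were added after their values were seen, and so was *rde-10*, the fourth of the called mRNAs beside the 3 named by rule. Alternatives were TMM factors, pseudocounts of 0.1 and 5 RPM, other filters, left-out libraries, a replicate block and one fit of all libraries. IP and input libraries of the same number had deviations from their group means that correlated at -0.0153 to 0.406, over 2 pairs per strain, so the numbers were not taken to pair them. Intervals for single shares are not given, since reads amplified by PCR are not independent molecules.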

Additional observations from a re-analysis of the deposited data

Results flagged for a closer look

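Enrichment over input differed between strains, by the limma interaction test, in each of the 4 pairs compared. For CSR-1a in JMC151 against CSR-1b in JMC164 76 members differed, for WAGO-4 against CSR-1b 159, for ALG-3 against CSR-1a in JMC151 54 and for GR3039 against GR3035 10. The extremes of the first pair were WBGene00013644 at 7.98 and WBGene00014576 at -3.73 on the log2 scale. Those of the second were WBGene00010295 at 5.01 and WBGene00010092 at -3.20. ALG-3 against CSR-1a gave WBGene00044042 at 3.18 and WBGene00013644 at -7.39. GR3039 against GR3035 gave WBGene00010295 at 1.95 and WBGene00007721 at -4.18, the latter with under 1 read in each GR3039 IP.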

How the results depend on the processing

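Of 427 alternatives tried on 38 named results, 412 kept direction and call, 15 lost the call and 0 reversed. The 437 members became 521 at 1 RPM, 335 at 5 RPM and 406 with 3 strains. Leaving structural RNAs out of the library total moved the gap of IP minus input to -3.52 points in JMC101, 6.64 in JMC151, -3.69 in JMC164, -4.12 in JMC205, -4.10 in JMC207 and -1.94 in JMC223. Leaving out WBGene00077437 gave -2.91, 4.60, -3.06, -3.14, -3.05 and -0.754 in the same order, and 1.02 in GR3035. Asking for 10 reads in both inputs gave 24 enriched members in JMC101, 22 in JMC151, 23 in JMC164, 28 in JMC205, 37 in JMC207, 11 in JMC223 and 51 in JMC161. A pseudocount of 5 RPM gave 26 in JMC101, 23 in JMC164, 37 in JMC205, 54 in JMC161 and 26 in GR3039. In JMC151 one fit of all libraries gave 105, and limma with no filter 0, where 237 of 424 had an unadjusted p under 0.05. TMM factors gave 22 in JMC223 and 57 in JMC161, and shifted the median of all features by -1.34 and -0.49 on the log2 scale there, and by between -0.57 and 0.32 in the other strains. Lower members became 195 in one fit, against 120, and 0 with no filter in JMC151. In JMC223 they became 111 in one fit and 76 with no filter, against 50. A pseudocount of 5 RPM gave 162 lower against 249 in JMC205, 32 against 59 in JMC248, 96 against 158 in GR3035 and 34 against 65 in GR3039. The 13 members lower in JMC223 minus JMC164 became 8 with TMM factors or a pseudocount of 0.1 RPM and 6 with no filter. For the interactions, JMC151 minus JMC164 gave 128 in one fit, 35 with no filter and 49 with a pseudocount of 0.1 RPM. JMC205 minus JMC151 gave 102 with TMM factors. GR3039 minus GR3035 gave 92 with TMM factors, 4 in one fit, 1 and 49 with pseudocounts of 0.1 and 5 RPM, 60 with the replicate block and 0 with no filter (limma, 168 of 415 at an unadjusted p under 0.05). The pathway list at 25 C gave 8 in DESeq2 and 2 with the replicate block, both added after seeing the data. The block changed no other count past 1.5 times. The cause of these shifts was not tested.

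Leaving out single libraries gave gaps of share between 1.49 and 2.27 points in GR3035, -0.797 and -0.302 in GR3039, -3.26 and -3.15 in JMC101, 5.03 and 6.12 in JMC151, -1.16 and -0.855 in JMC161, -3.58 and -3.20 in JMC164, -3.46 and -3.37 in JMC205, -3.48 and -3.18 in JMC207, -1.08 and -0.912 in JMC223, and -1.16 and -0.394 in JMC248. Enriched members numbered 94 to 106 in GR3035, 33 to 41 in GR3039, 28 to 58 in JMC101, 14 to 64 in JMC151, 94 to 101 in JMC161, 47 to 59 in JMC164, 67 to 81 in JMC205, 55 to 88 in JMC207, 35 to 80 in JMC223 and 19 to 30 in JMC248. Interactions numbered 0 to 63 for GR3039 minus GR3035, 29 to 80 for JMC151 minus JMC164, 32 to 87 for JMC205 minus JMC151 and 106 to 221 for JMC223 minus JMC164. The pathway list gave 0 to 12 at 20 C and 2 to 17 at 25 C.

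With 325376 reads in WAGO-4 input replicate 2, members under 3.07 RPM have under 1 read there, and 246 members could be tested with WAGO-4 against 417 in GR3035. The zero counts of the GR3039 fits without an input had 137 and 110 members at an unadjusted p under 0.05 (limma). mRNA alternatives for the members were not run, since no member has an mRNA row.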
